A study of Mus musculus with 18 samples.

Results

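The genes described here encode 10 myosin heavy chains: Myh3 (embryonic), Myh8 (perinatal), Myh2, Myh1 and Myh4 (adult fast types IIa, IIx and IIb), Myh7 (slow), Myh11 (smooth muscle) and the nonmuscle forms Myh9 (IIA), Myh10 (IIB) and Myh14 (IIC). They were chosen by name as a family, with earlier results of these data known, and matched to Ensembl identifiers through the symbols in the authors' deposited tables. All 10 were found among the 35275 genes measured in 18 libraries. Myh1, Myh3, Myh9, Myh10 and Myh14 reached 0.5 FPM in at least 3 libraries and could be tested, whereas Myh2, Myh4, Myh7, Myh8 and Myh11 did not. FPM is a gene's read count after scaling for library size, without division by gene length.

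The libraries are polyadenylated RNA from C2C12 cells, a mouse myoblast line that fuses into multinucleate myotubes when serum is lowered. The control cells are labelled wild-type. The other cells overexpress MUNC, a noncoding RNA from the region upstream of Myod1, either in its spliced form (MUNC spliced) or as the genomic sequence (MUNC genomic). All cells, controls included, came from a PAX7-negative C2C12 stock. Each of the 3 kinds of cells was collected in growth medium with 20% fetal serum (GM) and after 3 days in medium with 2% horse serum (DM3), with 3 biological replicates per group. The vector, the promoter driving MUNC and the number of clones are not given in the sources used here.

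Myosin heavy chains are motor proteins that hydrolyse ATP and pull on actin filaments. Muscle precursors contract their cytoskeleton with the nonmuscle forms, and once they differentiate they build sarcomeres from muscle forms, which in development appear in a sequence of embryonic, perinatal and adult isoforms. Each heavy chain works with essential and regulatory light chains, and folding of its head needs dedicated chaperones.

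The sarcomeric genes resemble each other, which bears on how their reads were assigned. On GRCm38, the build the submitters' processing notes name as mm10, Myh3, Myh2, Myh1, Myh4 and Myh8 lie in that order on the plus strand of chromosome 11, from 67078300 (start of Myh3) to 67308634 (end of Myh8). Myh10 lies further along the same chromosome, at 68691559 to 68816632. Myh7 lies on chromosome 14 (54970684 to 54994626), Myh9 on chromosome 15 (77760587 to 77842175), Myh11 on chromosome 16 (14194535 to 14291372) and Myh14 on chromosome 7 (44605803 to 44670843), all on the minus strand. Aligned coding sequences were 91.0% identical between Myh1 and Myh2 and 90.1% identical between Myh1 and Myh4, but 76.7% to 81.0% identical between Myh3 and the other 5 sarcomeric genes. Of all 50-base windows of the transcript, another gene also held 32.1% for Myh1, 28.9% for Myh2, 28.2% for Myh7, 21.4% for Myh8 and 18.9% for Myh4, against 4.81% for Myh3, 1.12% for Myh9, 0.947% for Myh10, 0.406% for Myh11 and 0% for Myh14. How reads that match several genes were counted is not stated, so levels of Myh1, Myh2, Myh4, Myh7 and Myh8 are uncertain in a way that those of Myh3 and the nonmuscle genes are less exposed to. The 60 coding bases where the 6 sarcomeric genes differ most are shown because a read from this stretch can be told apart. Capitals mark a base that differs from Myh3, and 43 of the 60 positions vary among the 6 genes. The stretch covers coding bases 1831 to 1890 of Myh3, 1828 to 1887 of Myh7 and 1837 to 1896 of the others.
Myh3: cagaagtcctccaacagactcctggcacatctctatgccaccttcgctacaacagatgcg
Myh8: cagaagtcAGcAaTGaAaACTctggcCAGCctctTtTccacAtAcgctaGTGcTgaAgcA
Myh2: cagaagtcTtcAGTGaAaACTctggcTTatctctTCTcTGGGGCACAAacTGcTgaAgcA
Myh1: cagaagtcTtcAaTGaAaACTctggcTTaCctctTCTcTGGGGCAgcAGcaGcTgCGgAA
Myh4: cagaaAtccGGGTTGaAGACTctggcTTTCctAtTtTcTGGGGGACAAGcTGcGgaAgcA
Myh7: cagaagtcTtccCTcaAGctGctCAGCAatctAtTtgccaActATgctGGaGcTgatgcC

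The promoters of 5 members are printed because these genes behaved differently although all but Myh14 lie in 1 cluster. Each window holds the 250 bases before the RefSeq start site on GRCm38.p6, on the gene's own strand. Capitals mark matches on either strand to the E-box CANNTG, the site type bound by Myod1 and Myog, to MCAT (CATTCC), to the MEF2 consensus and to the CArG box. A match is a run of letters, not evidence of binding.
Myh3, chr11:67078050-67078299, plus strand: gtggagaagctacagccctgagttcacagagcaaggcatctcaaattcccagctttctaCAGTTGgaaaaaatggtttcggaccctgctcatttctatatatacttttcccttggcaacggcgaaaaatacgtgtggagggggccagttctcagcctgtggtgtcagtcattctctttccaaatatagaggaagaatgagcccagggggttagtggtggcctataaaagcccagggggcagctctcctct
Myh1, chr11:67199852-67200101, plus strand: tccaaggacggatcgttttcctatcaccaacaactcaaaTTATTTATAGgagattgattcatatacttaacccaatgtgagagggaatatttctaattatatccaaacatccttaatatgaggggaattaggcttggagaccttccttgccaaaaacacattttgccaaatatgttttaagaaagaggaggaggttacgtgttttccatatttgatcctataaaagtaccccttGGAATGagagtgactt
Myh4, chr11:67237562-67237811, plus strand: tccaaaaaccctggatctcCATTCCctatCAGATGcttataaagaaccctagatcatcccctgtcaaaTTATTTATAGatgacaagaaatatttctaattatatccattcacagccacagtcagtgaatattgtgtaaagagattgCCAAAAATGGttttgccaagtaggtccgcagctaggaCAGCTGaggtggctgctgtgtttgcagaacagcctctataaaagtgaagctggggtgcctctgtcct
Myh8, chr11:67276874-67277123, plus strand: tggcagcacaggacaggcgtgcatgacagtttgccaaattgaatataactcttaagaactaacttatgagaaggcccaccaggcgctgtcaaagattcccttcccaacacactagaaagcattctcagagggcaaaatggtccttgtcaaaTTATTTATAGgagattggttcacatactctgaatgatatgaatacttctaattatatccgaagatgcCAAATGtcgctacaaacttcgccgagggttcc
Myh14, chr7:44670844-44671093, minus strand: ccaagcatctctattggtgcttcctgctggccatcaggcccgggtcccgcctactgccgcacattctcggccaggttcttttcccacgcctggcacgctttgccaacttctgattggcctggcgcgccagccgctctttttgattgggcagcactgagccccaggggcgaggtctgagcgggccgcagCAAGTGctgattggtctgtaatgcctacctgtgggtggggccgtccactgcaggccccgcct
Myh1, Myh4 and Myh8 held the identical MEF2 match TTATTTATAG, which no other member with a promoter entry had, and 2.92% of 32851 promoter windows of the same length held a MEF2 match. The Myh3 window held 1 E-box (CAGTTG) and none of the other marked motifs. Myh4 held 2 E-boxes, CAGATG and CAGCTG, as well as the CArG match CCAAAAATGG. The Myh1 window held no E-box. The window of Myh2, in the same cluster and not printed, held none of the marked motifs. E-boxes are common, being present in 66.2% of the windows, while MCAT was present in 12.6%, CAGCTG in 13% and a CArG match in 1.47%.

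Depth recovered from the values was 38416702 to 68788327 reads per library, so that 3 reads, the upper limit that a count of 0 allows, came to at most 0.0757 FPM. This limit covers counting error only. The myogenic marker list was checked against the label of myoblasts. In control cells Myf5 averaged 71.8 FPM in GM and 103 FPM in DM3 and Des 24.2 and 77.5 FPM, whereas Myod1 averaged 0.0285 and 0.0993 FPM and Myog 0.0287 and 0.344 FPM. Myod1 averaged 12.4 and 28.6 FPM in MUNC spliced cells and 3.84 and 18.4 FPM in MUNC genomic cells. Pax7 averaged at most 0.0727 FPM in any group. Cdh15 and Itga7, on the same list, averaged 105 and 320 FPM over the 18 libraries. The 7 listed genes summed to 276 to 384 FPM in control GM and 557 to 841 FPM in control DM3. The control libraries therefore carry the myoblast label with several listed genes abundant and with Myod1 and Myog near 0.

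Myh9 was the most abundant member in each library, and every sarcomeric gene stood below it. Levels of different genes were compared per kilobase of the transcript with the longest coding sequence. In control GM cells Myh9 stood at 314 ± 88.6 FPM per kb (SD, n = 3), Myh10 at 20.7 ± 3.74, Myh14 at 0.118 ± 0.157 and Myh3 at 0.0513 ± 0.0135. In MUNC spliced DM3 cells Myh3 stood at 13.2 ± 14.0 FPM per kb, above Myh1 at 0.907 ± 1.11, Myh4 at 0.179 ± 0.148, Myh7 at 0.103 ± 0.0617, Myh2 at 0.0340 ± 0.0421 and Myh8 at 0.00403 ± 0.00475. From Myh1 on, the ranges of neighbours in this order overlap.

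**Figure D1:**
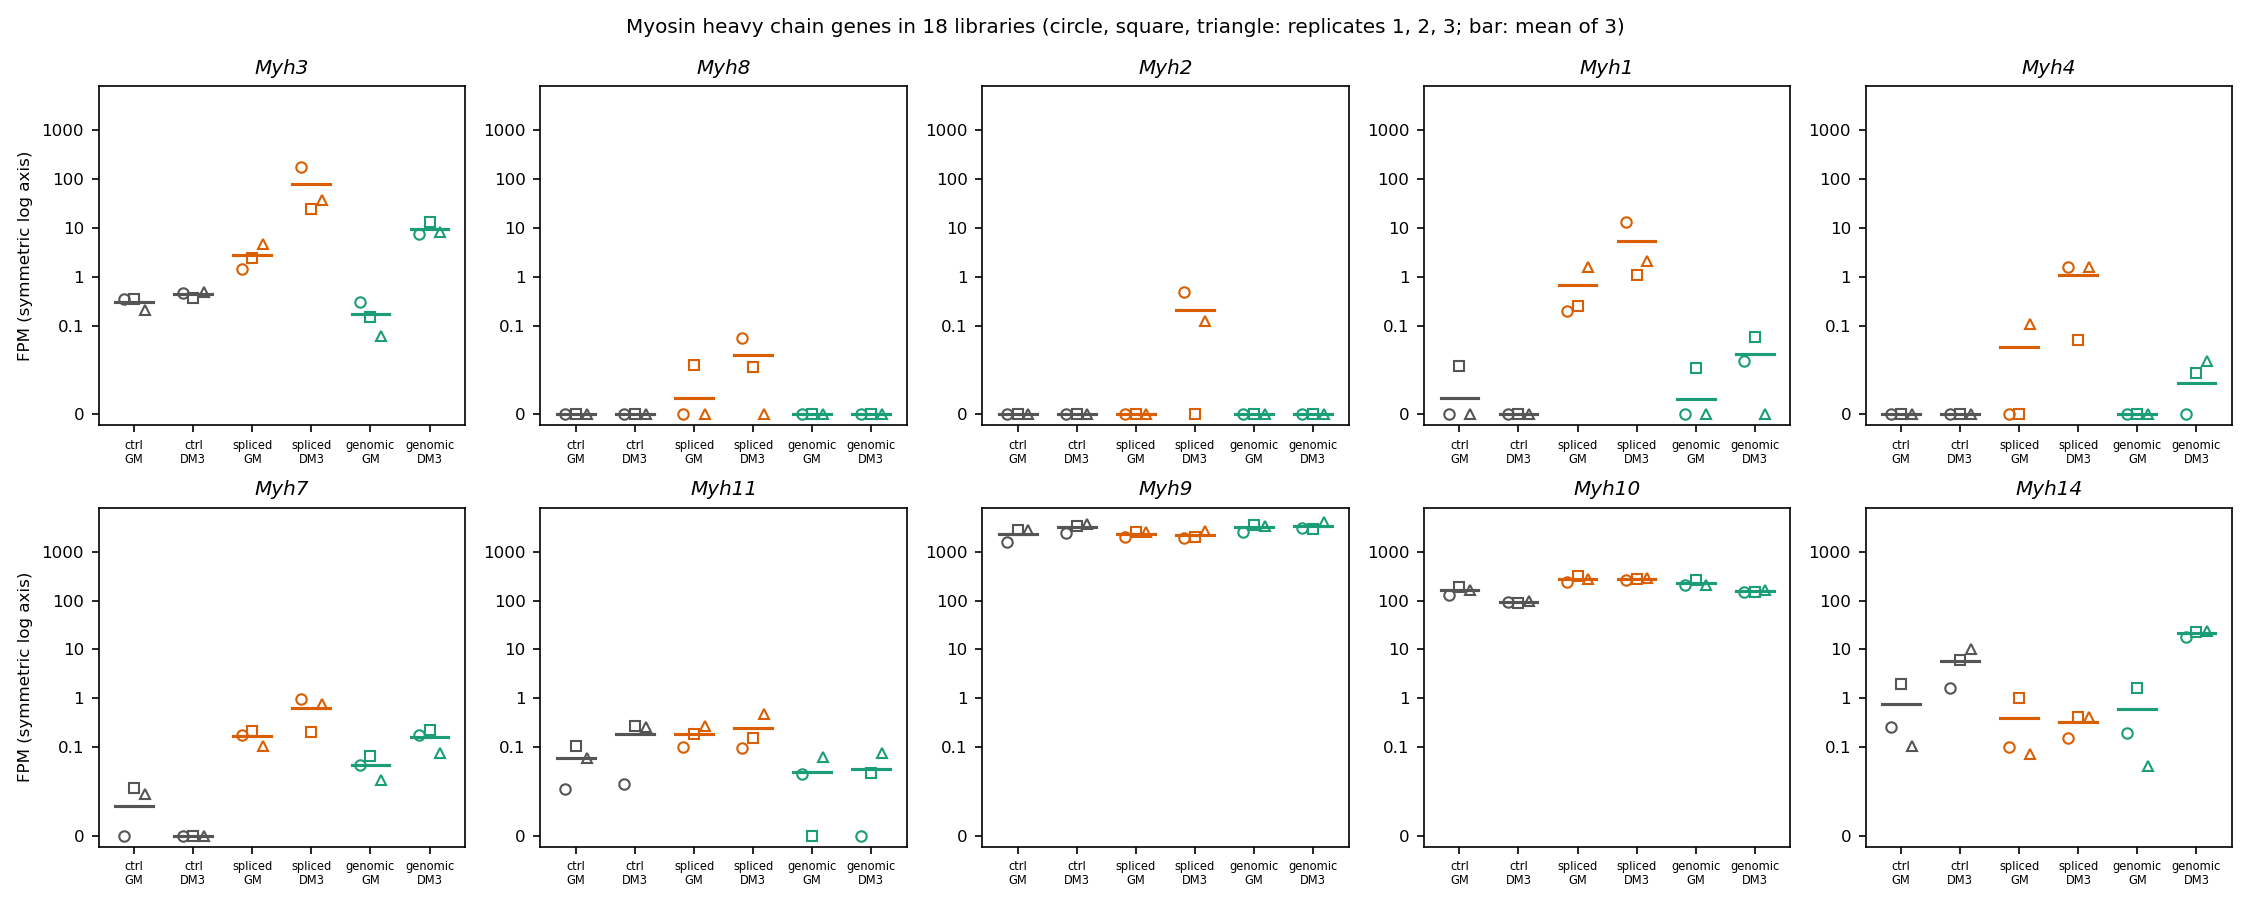
FPM (symmetric log axis) of each of the 10 genes in the 18 libraries. Columns are control, MUNC spliced and MUNC genomic cells in GM and DM3, symbols are replicates and bars are means of 3. Myh3 is highest in MUNC spliced DM3, between 24.2 and 177 FPM, while Myh9 lies between 1573 and 4115 FPM throughout.

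Myh3 encodes the embryonic heavy chain, the first sarcomeric form made by differentiating myoblasts. It stayed below 0.5 FPM in control cells and was far higher in both MUNC lines after 3 days of differentiation, most in MUNC spliced cells. Control cells gave 0.36, 0.35 and 0.22 FPM in GM and 0.46, 0.37 and 0.50 FPM in DM3 for replicates 1, 2 and 3. MUNC spliced cells gave 1.44, 2.47 and 4.64 FPM in GM and 177, 24.2 and 37.9 FPM in DM3. MUNC genomic cells gave 0.30, 0.15 and 0.06 FPM in GM and 7.66, 13 and 8.27 FPM in DM3. Every DM3 library lay above every GM library of the same cells, and in DM3 the 3 kinds of cells did not overlap. All tests of log2 changes below are limma's, on log2(FPM + 1), with Benjamini-Hochberg adjustment over the 13869 genes tested, and this scale understates changes near 0.

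In control cells Myh3 differed between DM3 and GM by 0.14 on the log2 scale (SE 0.48, adjusted p = 0.823), although the libraries did not overlap. Myh3 rose with differentiation by 3.95 (SE 0.48, adjusted p = 2.35e-05) in MUNC spliced cells and by 3.15 (SE 0.48, adjusted p = 5.88e-05) in MUNC genomic cells. In DM3 the difference from control was 5.28 in MUNC spliced cells (adjusted p = 3.18e-07) and 2.85 in MUNC genomic cells (adjusted p = 0.000178). These comparisons share the control libraries. As a ratio of mean FPM, Myh3 in DM3 stood 180-fold above control in MUNC spliced cells, and 69.9-fold above it without MUNC spliced DM3 replicate 1. The ratio in MUNC genomic DM3 was 21.7-fold. MUNC spliced DM3 exceeded MUNC genomic DM3 by 2.43 (SE 0.48, adjusted p = 0.000652), an 8.27-fold ratio of means that became 3.22-fold, and 1.59 on the log2 scale (adjusted p = 0.000284), without that same replicate.

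In GM, Myh3 in MUNC spliced cells already exceeded control, by 1.47 (SE 0.48, adjusted p = 0.0259), and the libraries did not overlap. This call is close to the threshold. It was lost when any 1 of 5 libraries was left out (control GM replicates 1, 2 and 3 and MUNC spliced GM replicates 2 and 3, adjusted p = 0.0516 to 0.103) and without the filter on low values (adjusted p = 0.0655). The difference between MUNC spliced and MUNC genomic cells in GM was 1.64 (adjusted p = 0.0144), and 1.32 (adjusted p = 0.0665) without MUNC spliced GM replicate 3. MUNC genomic and control cells in GM differed by -0.16 (95% interval -1.18 to 0.86, adjusted p = 0.856).

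Myh8, the perinatal heavy chain, was represented by 5 reads in all 18 libraries together. It was at 0 in 15 libraries and its highest value was 0.0570 FPM, in MUNC spliced DM3 replicate 1. No group average exceeded the level that a count of 0 allows.

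The adult fast genes were detected mainly in MUNC spliced cells. Myh1, the IIx form, gave 0.20, 0.26 and 1.62 FPM in MUNC spliced GM and 13.3, 1.12 and 2.13 FPM in MUNC spliced DM3. In the other 12 libraries Myh1 ranged from 0 to 0.0602 FPM, with 7 reads among them and 8 libraries at 0. Replicate 1 held the highest Myh1 value in MUNC spliced DM3 and the lowest in MUNC spliced GM, and the GM and DM3 libraries of these cells overlap. Myh1 passed the filter on low values through 4 MUNC spliced libraries alone, so that its presence among the tested genes already reflects this group.

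Myh1 rose with differentiation in MUNC spliced cells by 1.53 (SE 0.46, adjusted p = 0.0170). That change was 1.33 (adjusted p = 0.0702) without MUNC spliced GM replicate 1 and 0.70 (adjusted p = 0.0307) without MUNC spliced DM3 replicate 1. It also did not pass when only the 2 compared groups were fitted (adjusted p = 0.149). In DM3 Myh1 in MUNC spliced cells exceeded control by 2.19 (adjusted p = 0.00116) and MUNC genomic cells by 2.15 (adjusted p = 0.00121). These differences were 1.36 and 1.33 without MUNC spliced DM3 replicate 1 (adjusted p = 0.000361 and 0.000369). Against control DM3, where Myh1 had no read, the mean in MUNC spliced DM3 was at least 93.1-fold higher, taking 3 reads per library as the floor, and at least 27.4-fold higher without replicate 1.

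For Myh1 in GM the outcome depended on the scale. MUNC spliced exceeded control GM by 0.65 (adjusted p = 0.286) at a pseudocount of 1, with no overlap between libraries. The change was 2.43 (adjusted p = 0.0116) at a pseudocount of 0.1, and edgeR on the recovered reads gave 6.47 (adjusted p = 0.00658), where it called 36.9% of all genes. A log2 change fitted against a group with a single read depends on the prior count and is no measure of size.

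Myh4, the IIb form found in the fastest fibres, gave 1.59, 0.05 and 1.59 FPM in MUNC spliced DM3 and 0, 0 and 0.11 FPM in MUNC spliced GM. All 6 control libraries and all 3 MUNC genomic GM libraries were at 0, and MUNC genomic DM3 reached 0.0195 FPM at most. MUNC spliced DM3 replicate 2 held 3 Myh4 reads, while replicates 1 and 3 held 84 and 88. Set against the floor of control DM3, mean Myh4 in MUNC spliced DM3 was higher by at least 18.2-fold.

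Myh2, the IIa form, was at 0 in 16 libraries and gave 0.49, 0 and 0.13 FPM in MUNC spliced DM3, which is 33 reads in all. Its mean there was at least 3.49-fold above the floor of control DM3, and at least 1.07-fold without replicate 1. Myh7, the slow form also used in heart, gave 0.18, 0.22 and 0.11 FPM in MUNC spliced GM and 0.95, 0.21 and 0.76 FPM in MUNC spliced DM3. MUNC genomic cells gave 0.04, 0.07 and 0.02 FPM of Myh7 in GM and 0.18, 0.23 and 0.08 FPM in DM3. Control DM3 had no Myh7 read and control GM had 2. Both MUNC lines lay above control in each medium without overlap. In MUNC genomic GM this rests on 8 Myh7 reads. There edgeR on the recovered reads without a filter did not call the difference from control (adjusted p = 0.315). Relative to the floor of control DM3, the DM3 mean of Myh7 was higher by at least 10.8-fold with MUNC spliced and at least 2.71-fold with MUNC genomic.

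Members below the filter were tested with edgeR on the recovered reads of all 24893 genes with a read, a choice made after the data had been seen. In MUNC spliced against control DM3, Myh4 (adjusted p = 0.000692), Myh7 (adjusted p = 1.36e-05) and Myh2 (adjusted p = 0.0287) were higher, 3 of the 5 low members, where 23% of all genes in that fit were called. In MUNC genomic against control DM3, Myh7 was the single low member called (adjusted p = 0.000903), against 22% of all genes. In GM, Myh7 was called in MUNC spliced against control (adjusted p = 0.00681), against 18.6% of all genes. limma without the filter gave an adjusted p of 0.00830 for Myh4, 0.000677 for Myh7 and 0.0623 for Myh2 in MUNC spliced against control DM3, and 0.247 for Myh7 in MUNC genomic against control DM3. The authors' deposited table gave log2 fold changes of 8.26 for Myh4 (adjusted p = 0.00118), 7.51 for Myh7 (adjusted p = 1.04e-06) and 5.88 for Myh2 (adjusted p = 0.260) in MUNC spliced against control DM3. For Myh7 in MUNC genomic against control DM3 the authors' deposited table gave 5.54 (adjusted p = 0.00282).

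Myh11, the smooth muscle heavy chain, stayed at or below 0.488 FPM, with 121 reads in all libraries together. Control cells gave 0.02 to 0.11 FPM in GM and 0.02 to 0.28 FPM in DM3. MUNC spliced cells gave 0.10 to 0.27 FPM in GM and 0.09 to 0.49 FPM in DM3. MUNC genomic cells gave 0 to 0.06 FPM in GM and 0 to 0.08 FPM in DM3, and lay below MUNC spliced cells without overlap in both media. Against MUNC genomic cells in DM3, edgeR without a filter gave a log2 change of 2.68 (adjusted p = 0.0486, with 24.8% of all genes called) and limma without a filter gave an adjusted p of 0.0850.

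The nonmuscle members behaved unlike each other. Myh9, the main motor of cell cortex and stress fibres, varied least of the 5 tested members on the log2(FPM + 1) scale (SD 0.36 over 18 libraries). It still ran from 1573 to 4115 FPM. Control cells gave 1573, 2711 and 2715 FPM in GM and 2416, 3385 and 3678.5 FPM in DM3. MUNC spliced cells gave 1978, 2471 and 2504 FPM in GM and 1887, 1976 and 2671 FPM in DM3. MUNC genomic cells gave 2576, 3479.5 and 3319.8 FPM in GM and 3025, 2877 and 4115 FPM in DM3. In the 9 comparisons the libraries overlapped except for MUNC spliced against MUNC genomic cells, where MUNC spliced was lower in both media.

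For Myh9 the 1 comparison called was MUNC spliced against MUNC genomic in DM3, at -0.62 (SE 0.24, adjusted p = 0.0486), a ratio of means of 0.652. That call was lost when any 1 of 5 libraries was left out (all but MUNC spliced DM3 replicate 3, adjusted p = 0.0522 to 0.190) and with equal sums per library (adjusted p = 0.0519). Replicate 1 was the lowest of 3 in all 3 GM groups. The replicate number was also fitted as a block over all 18 libraries. Same-numbered libraries correlated by as little as 0.0163 in MUNC spliced DM3 against GM, so this block is in doubt. With it 4 more Myh9 differences passed, all in comparisons where the numbers pair the libraries. They were 0.46 for control DM3 against GM (adjusted p = 0.114 without the block and 0.0168 with it), 0.45 for MUNC genomic against control in GM (0.185 and 0.0314), -0.53 for MUNC spliced against control in DM3 (0.0867 and 0.00959) and -0.43 for MUNC spliced against MUNC genomic in GM (0.183 and 0.0339). Without the block, leaving out control DM3 replicate 1 gave adjusted p = 0.0458 for control DM3 against GM and 0.0376 for MUNC spliced against control in DM3, and leaving out MUNC spliced DM3 replicate 3 gave 0.0484 for the latter.

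Myh10, the nonmuscle form prominent in embryonic tissue and neurons, fell with differentiation in control cells but not detectably in MUNC spliced cells. Control cells gave 131, 189 and 163 FPM in GM and 93.0, 87.4 and 99.7 FPM in DM3. MUNC spliced cells gave 241, 313 and 275 FPM in GM and 260, 275 and 289 FPM in DM3. MUNC genomic cells gave 213, 263 and 209 FPM in GM and 149, 147 and 167 FPM in DM3. The GM and DM3 libraries did not overlap in control and MUNC genomic cells and overlapped in MUNC spliced cells. From low to high the groups ran control DM3, MUNC genomic DM3, control GM, MUNC genomic GM, MUNC spliced DM3 and MUNC spliced GM. Control GM overlapped MUNC genomic DM3, and each of the last 3 groups overlapped the other two.

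Myh10 fell by 0.77 on the log2 scale in control cells (SE 0.13, adjusted p = 0.000125) and by 0.56 in MUNC genomic cells (SE 0.13, adjusted p = 0.00224). In MUNC spliced cells the change was -0.00116 (95% interval -0.28 to 0.28, adjusted p = 0.997). Myh10 was higher than control in each MUNC line and medium, by 0.78 (adjusted p = 0.000266) in MUNC spliced and 0.51 (adjusted p = 0.00879) in MUNC genomic cells in GM. In DM3 the differences were 1.55 (adjusted p = 1.40e-07, 2.94-fold in means) and 0.72 (adjusted p = 0.000377, 1.65-fold). The GM difference of MUNC genomic cells did not pass without control GM replicate 1 (0.37, adjusted p = 0.0519), without MUNC genomic GM replicate 2 (0.40, adjusted p = 0.0536) or when the other groups were left out of the fit (adjusted p = 0.0699). MUNC spliced exceeded MUNC genomic cells by 0.83 in DM3 (adjusted p = 8.17e-05) and by 0.27 in GM (95% interval -0.00477 to 0.55, adjusted p = 0.117), the latter 0.38 (adjusted p = 0.0487) without MUNC genomic GM replicate 2.

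Myh14, the nonmuscle form found mostly in epithelia, differed from control in opposite directions in the 2 MUNC lines in DM3. Control cells gave 0.26, 1.95 and 0.11 FPM in GM and 1.59, 5.98 and 10.2 FPM in DM3. MUNC spliced cells gave 0.10, 1.03 and 0.07 FPM in GM and 0.15, 0.42 and 0.42 FPM in DM3. MUNC genomic cells gave 0.20, 1.62 and 0.04 FPM in GM and 17.6, 22.8 and 23.5 FPM in DM3. In DM3 the 3 kinds of cells did not overlap, MUNC spliced being lowest and MUNC genomic highest. In GM replicate 2 stood above the other 2 replicates in all 3 kinds of cells.

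Myh14 rose with differentiation by 3.90 in MUNC genomic cells (SE 0.47, adjusted p = 6.95e-06) and by 1.88 in control cells (SE 0.47, adjusted p = 0.00278), although control GM replicate 2 exceeded control DM3 replicate 1. The ratio of means in control cells was 7.69-fold, 32.6-fold without control GM replicate 2 and 4.92-fold without control DM3 replicate 3. In MUNC spliced cells the change was -0.02 (95% interval -1.01 to 0.98, adjusted p = 0.984). In DM3 Myh14 was lower than control in MUNC spliced cells by 2.15 on the log2 scale (log2 change -2.15, adjusted p = 0.00156). As a ratio of means control DM3 was 18.0-fold higher than MUNC spliced DM3, and 11.5-fold higher without control DM3 replicate 3. MUNC genomic DM3 exceeded control DM3 by 1.91 (adjusted p = 0.00388, 3.59-fold in means and 5.63-fold without control DM3 replicate 3). That last call did not pass at a pseudocount of 0.1 (2.16, adjusted p = 0.0821), with edgeR (adjusted p = 0.134) or with DESeq2 (adjusted p = 0.210) on the recovered reads of all 18 libraries, while the authors' deposited table gave 1.86 (adjusted p = 0.0227). The 2 MUNC lines differed in DM3 by -4.06 (adjusted p = 2.96e-06), MUNC genomic DM3 being 64.8-fold higher in means. No difference between the lines in Myh14 was called in GM, where log2 changes lay between -0.26 and -0.11.

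**Figure D2:**
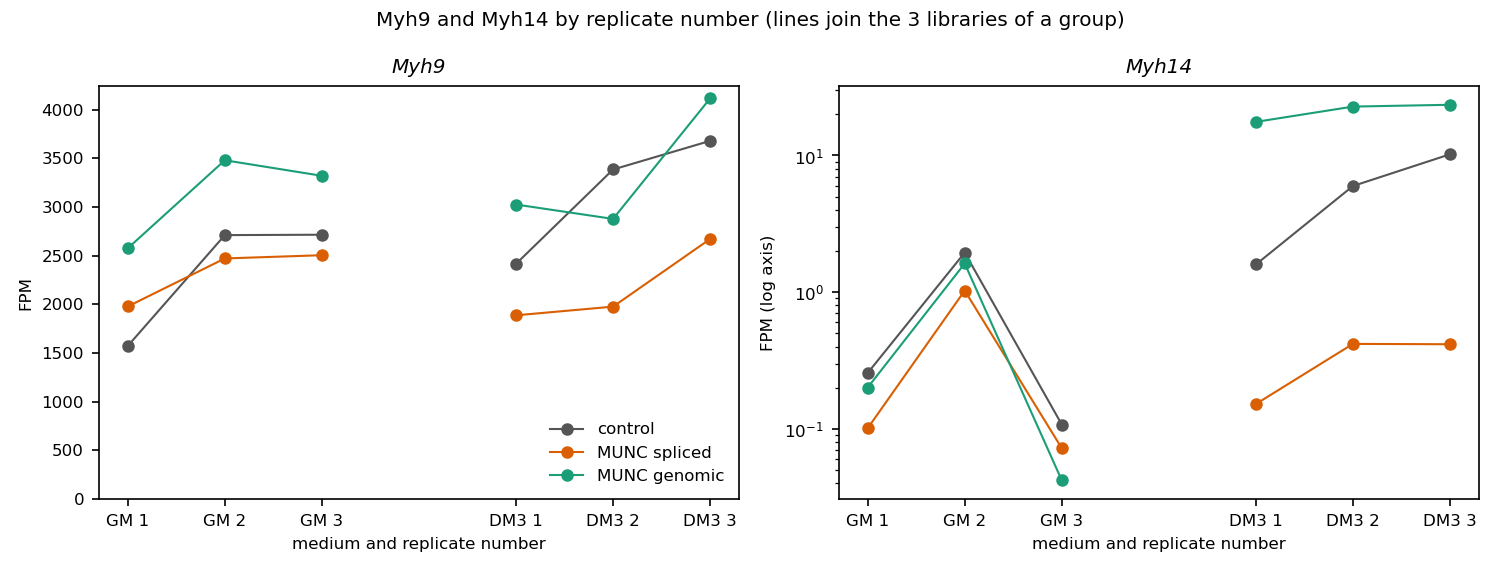
FPM of Myh9 (linear axis) and Myh14 (log axis) by medium and replicate number, with lines joining the 3 libraries of a group. In GM, replicate 1 is lowest for Myh9 and replicate 2 is highest for Myh14 in all 3 kinds of cells.

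Counted by comparison, the tested members called are a description, since Myh1, Myh3 and Myh14 passed the filter through groups in which they are high. Between control DM3 and GM, 2 of the 5 tested members were called (Myh14 higher, Myh10 lower), against 58.2% of all tested genes, 29.6% higher and 28.6% lower. With differentiation, 2 were called in MUNC spliced cells (Myh3 and Myh1 higher), where 35.6% of all tested genes were called, 17.2% higher and 18.4% lower. In MUNC genomic cells 3 were called (Myh3 and Myh14 higher, Myh10 lower), against 51.4% of all, 26.3% higher and 25.1% lower. Against control in GM, 2 were called in MUNC spliced cells (Myh3 and Myh10 higher), against 35.5% of all, 18.2% higher and 17.3% lower. In MUNC genomic GM cells Myh10 alone was called, as higher, against 26.8% of all, 12.2% higher and 14.5% lower. Against control in DM3, 4 were called in MUNC spliced cells (Myh3, Myh1 and Myh10 higher, Myh14 lower), against 43.3% of all, 22.3% higher and 21% lower. In MUNC genomic DM3 cells 3 were called (Myh3, Myh10 and Myh14 higher), against 40.3% of all, 19.3% higher and 20.9% lower. Between the MUNC lines, Myh3 alone was called in GM, against 35.8% of all, 19.9% higher in MUNC spliced and 16% lower. In DM3 all 5 were called (Myh3, Myh1 and Myh10 higher in MUNC spliced, Myh9 and Myh14 lower), against 44.2% of all, 23.4% higher and 20.8% lower. Large shares of all genes differed between these groups, and a count near that share is not a result about the members. edgeR on the recovered reads called like shares, for example 57.9% between control DM3 and GM and 51.5% between MUNC genomic DM3 and GM.

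Libraries of the compared groups did not overlap for Myh3 and Myh10 between control DM3 and GM, where this held for 62.4% of all tested genes, for Myh3 with differentiation of MUNC spliced cells (44.6%) and for Myh3, Myh10 and Myh14 with differentiation of MUNC genomic cells (62.8%). Against control they did not overlap for Myh1, Myh3 and Myh10 in MUNC spliced GM (43.6%), for Myh10 in MUNC genomic GM (37.9%), for Myh1, Myh3, Myh10 and Myh14 in MUNC spliced DM3 (53%) and for Myh3, Myh10 and Myh14 in MUNC genomic DM3 (56.9%). Between the MUNC lines they did not overlap for Myh1, Myh3 and Myh9 in GM (45.7%) and for all 5 tested members in DM3 (57.2%).

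**Figure D3:**
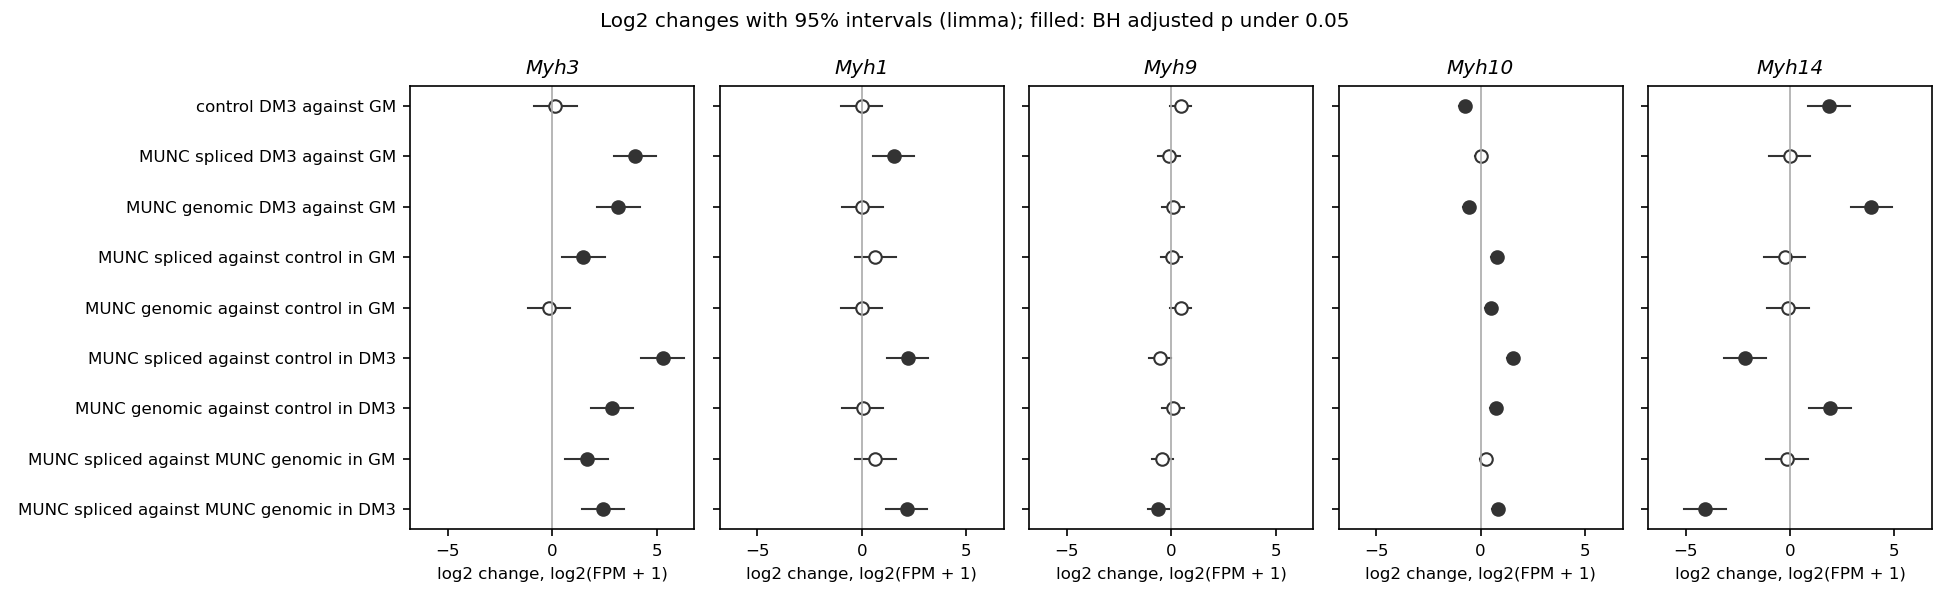
Log2 changes on the log2(FPM + 1) scale of the 5 tested genes in 9 comparisons, with 95% intervals from limma. Filled points passed an adjusted p under 0.05. Myh3 reaches 5.28 in MUNC spliced against control in DM3 and Myh14 reaches -4.06 in MUNC spliced against MUNC genomic in DM3.

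Whether the response to differentiation differed between kinds of cells was tested directly. The change of Myh3 exceeded that of control cells by 3.8 in MUNC spliced (SE 0.68, adjusted p = 0.00284) and by 3.01 in MUNC genomic cells (SE 0.68, adjusted p = 0.0105). The change of Myh10 exceeded that of control cells by 0.76 in MUNC spliced cells (SE 0.19, adjusted p = 0.0143), and by 0.21 in MUNC genomic cells (95% interval -0.19 to 0.60, adjusted p = 0.558). Myh3 and Myh10 were thus the 2 of 5 members called for MUNC spliced, where 14.4% of all tested genes were called, 7.43% higher and 6.94% lower. Myh3 was the 1 called for MUNC genomic, where 8.81% were called, 3.56% higher and 5.25% lower. Myh3 passed the filter only through MUNC spliced and MUNC genomic DM3 libraries, where it is high, so these counts are a description. For Myh14 the estimates were -1.89 in MUNC spliced (adjusted p = 0.0668) and 2.02 in MUNC genomic cells (adjusted p = 0.0726), and neither passed. The first passed without control GM replicate 2 (-2.33, adjusted p = 0.0265) or control DM3 replicate 1 (-2.48, adjusted p = 0.00996), and the second without MUNC genomic GM replicate 2 (2.43, adjusted p = 0.0352) or control DM3 replicate 3 (2.49, adjusted p = 0.0278). With the replicate number as a block both passed in limma (adjusted p = 0.0179 and 0.0188). That block is in doubt here, since same-numbered GM and DM3 libraries correlated by as little as 0.0163 in MUNC spliced and 0.0531 in MUNC genomic cells. The estimate for Myh1 in MUNC spliced cells was 1.53 (adjusted p = 0.120), and 2.09 (adjusted p = 0.0287) without MUNC spliced DM3 replicate 2. The 2 MUNC lines differed from each other in their Myh14 response by -3.91 (SE 0.67, adjusted p = 0.00137), the 1 of 5 members called there, where 10.5% of all tested genes were called, 5.36% higher and 5.17% lower. edgeR on the recovered reads gave -5.37 for that difference with an adjusted p of 0.0560, where it called 7.15% of all genes. For Myh10 the MUNC lines differed by 0.56 (adjusted p = 0.0686), and by 0.65 (adjusted p = 0.0497) without MUNC spliced GM replicate 2. For Myh1 they differed by 1.5 (adjusted p = 0.159), and by 2.05 (adjusted p = 0.0349) without MUNC spliced DM3 replicate 2.

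The make-up of the 10 heavy chain transcripts shows how small the part of the 6 sarcomeric members was. Myh7b and other heavy chain genes outside the members, described below, are not counted. Of the summed FPM per kb of the 10 genes, the 6 sarcomeric genes together held 0.0175% ± 0.00811 (SD, n = 3) in control GM and 0.0174% ± 0.00480 in control DM3. They held 0.173% ± 0.0997 in MUNC spliced GM and 10%, 1.39% and 1.75% in replicates 1 to 3 of MUNC spliced DM3. In MUNC genomic cells the share was 0.00860% ± 0.00617 in GM and 0.359% ± 0.156 in DM3. The MUNC spliced DM3 mean of 4.39% fell to 1.57% without replicate 1. Myh3 held 91.8% ± 2.69 of the sarcomeric sum in MUNC spliced DM3 and 98.1% ± 0.698 in MUNC genomic DM3. With the merged length of all annotated exons in place of the transcript, a choice made after the data had been seen, sarcomeric shares were 6.96% in MUNC spliced DM3, 0.607% in MUNC genomic DM3 and 0.0298% in control DM3.

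Among the nonmuscle genes the balance of Myh9 and Myh10 differed between the lines. The ratio of Myh9 to Myh10 per kb was 15 ± 2.42 in control GM and 35.4 ± 7.19 in control DM3, 14.3 ± 2.03 and 22.5 ± 2.88 in MUNC genomic GM and DM3, and 8.78 ± 0.663 and 8.24 ± 1.23 in MUNC spliced GM and DM3. The 6 MUNC spliced libraries, at 7.50 to 9.66, lay below the 12 others, at 12.5 to 40.4. Myh10 held 10.2% ± 0.684 of the summed level in MUNC spliced GM and 10.4% ± 1.19 in MUNC spliced DM3, against 6.36% ± 0.977 and 2.83% ± 0.630 in control cells. Myh14 held 0.702% ± 0.130 in MUNC genomic DM3, 0.193% ± 0.118 in control DM3 and 0.0147% ± 0.00694 in MUNC spliced DM3.

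**Figure D4:**
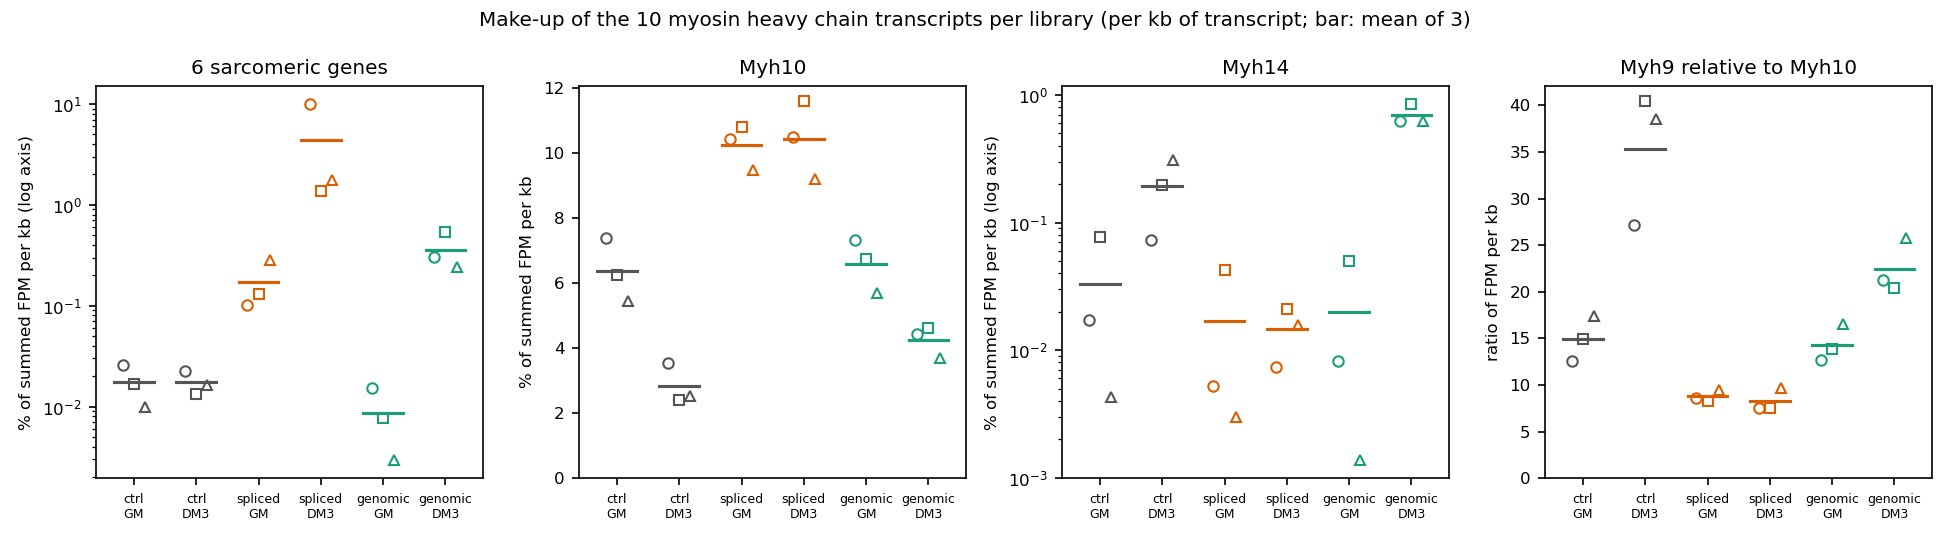
Share of the summed FPM per kb held by the 6 sarcomeric genes (log axis), by Myh10 and by Myh14 (log axis), and the ratio of Myh9 to Myh10 per kb, in each library with the mean of 3 as a bar. The ratio is 7.50 to 9.66 in all 6 MUNC spliced libraries and 12.5 to 40.4 in the 12 others.

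The partners of the sarcomeric heavy chains were described by lists. Listed genes could pass the filter through the MUNC groups in which they are high, so counts of listed genes called are a description. Of 6 sarcomeric light chains, 3 could be tested, and all 3 rose with differentiation in MUNC spliced cells (median log2 change 3.12, against -0.00799 for all tested genes) and in MUNC genomic cells (2.42, against 0.0182), while 1 rose in control cells (0.15, against 0.0213). Of all tested genes 17.2%, 26.3% and 29.6% were higher in DM3 in these MUNC spliced, MUNC genomic and control comparisons. Mylpf, the fast regulatory light chain, averaged 3.35 ± 1.41, 75.0 ± 73.5 and 20.9 ± 9.72 FPM (SD, n = 3) in DM3 of control, MUNC spliced and MUNC genomic cells. Myl1, a fast essential light chain, averaged 0.109 ± 0.10, 16.7 ± 14.0 and 4.79 ± 2.06 FPM in the same groups, and Myl4, the embryonic and atrial essential light chain, 0.478 ± 0.120, 10.5 ± 5.36 and 4.12 ± 1.0 FPM. Without MUNC spliced DM3 replicate 1 the means there were 32.5 FPM for Mylpf and 8.81 FPM for Myl1, and without control DM3 replicate 2 that of Myl1 in control DM3 was 0.0556 FPM. Myl2, Myl3 and Myl7, the slow and cardiac chains, averaged at most 0.0121 FPM in any group. Against control in DM3 all 3 tested chains were higher in both MUNC lines, as were 22.3% of all tested genes in MUNC spliced and 19.3% in MUNC genomic cells. Myl1 and Myl4 averaged below the 0.5 FPM of the filter in control DM3, so their place among the tested genes may itself reflect the MUNC lines.

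Of 10 genes for other thick filament and M-band proteins, 6 could be tested. With differentiation 3 rose in control cells (median 0.51), 5 in MUNC spliced cells (1.91) and 5 in MUNC genomic cells (1.73), and none fell, where 58.2%, 35.6% and 51.4% of all tested genes were called in either direction. Myom2, an M-band protein, rose in all 3 kinds of cells, by 3.34, 3.33 and 3.04 in control, MUNC spliced and MUNC genomic cells (adjusted p = 1.97e-06, 8.15e-06 and 6.97e-06), so control cells raised this gene while Myh3 stayed below 0.5 FPM. Against control in DM3 Myom2 was lower in MUNC genomic cells (-1.74, adjusted p = 0.00125). Ttn, the giant spring protein that spans the sarcomere, averaged 3.52 ± 1.59, 63.9 ± 65.0 and 6.13 ± 2.91 FPM in DM3 of control, MUNC spliced and MUNC genomic cells. Mybph, a myosin-binding protein, averaged 0.0316 ± 0.0285, 25.4 ± 17.2 and 3.35 ± 1.88 FPM in these groups. Without MUNC spliced DM3 replicate 1 the means there were 26.5 FPM for Ttn and 15.5 FPM for Mybph, and without control DM3 replicate 3 that of Mybph in control DM3 was 0.0197 FPM.

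The list of myosin folding and assembly factors had 7 of 8 genes tested, and 4 were higher and none lower in MUNC spliced against control DM3 (median 0.81). They were Unc45b, Smyd1, Trim55 and Trim63, of which Trim55 and Trim63 are muscle ubiquitin ligases and not chaperones. In MUNC genomic against control DM3, 2 were higher (Unc45b and Hsp90aa1) and none lower (median 0.37). Of all tested genes 43.3% and 40.3% were called in these comparisons. Its most abundant members are general chaperones. Hsp90aa1, the inducible HSP90, fell with differentiation in control cells by 1.31 on the log2 scale (adjusted p = 9.95e-05) and Hsp90ab1, the constitutive form, by 0.70 (adjusted p = 0.00567). Unc45a, the myosin chaperone of nonmuscle cells, differed by -0.22 (adjusted p = 0.0836). Unc45b, its striated muscle counterpart, was named after its values had been seen, and averaged 0.0766 ± 0.0207, 1.91 ± 2.03 and 1.86 ± 0.217 FPM in DM3 of control, MUNC spliced and MUNC genomic cells. Its MUNC spliced DM3 mean was 0.737 FPM without replicate 1.

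Of 13 regulators known for setting fibre type 10 were tested, and 2 were higher and 5 lower in MUNC spliced against control DM3 (median -0.43), and 1 higher and 3 lower in MUNC genomic against control DM3 (median -0.36), against 43.3% and 40.3% of all tested genes called. Mef2a, a transcription factor of muscle genes, was the 1 higher in MUNC genomic DM3, at 1.47 (adjusted p = 9.56e-06), and was also higher in MUNC spliced DM3, at 0.93 (adjusted p = 0.000819). Mef2d averaged 154 ± 27.4 and 99.4 ± 7.21 FPM in DM3 of control and MUNC spliced cells, a fall of 0.61 on the log2 scale (log2 change -0.61, adjusted p = 0.00737).

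All 5 nonmuscle light chains were tested. In MUNC genomic against control DM3, 4 were higher and 1 lower (median 0.87, against -0.00986 for all tested genes), and in MUNC spliced against control DM3, 2 were higher and 1 lower (median 0.19). Of all tested genes 40.3% were called in the MUNC genomic and 43.3% in the MUNC spliced comparison. Myl6, the essential light chain of nonmuscle myosin, was higher in MUNC genomic DM3 by 0.97 (adjusted p = 9.64e-06) and differed by 0.19 in MUNC spliced DM3 (adjusted p = 0.218). Myl12a, a regulatory light chain, was higher by 0.50 (adjusted p = 0.00355) and 0.31 (adjusted p = 0.0487), and its paralog Myl12b was lower in MUNC genomic DM3 (-0.54, adjusted p = 0.00676).

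Kinases, phosphatase subunits and binding partners of nonmuscle myosin were all measured, 11 of 11. In MUNC spliced against control DM3, 4 were higher and 1 lower (median 0.24), and in MUNC genomic against control DM3, 2 were higher and 2 lower (median 0.04), where 43.3% and 40.3% of all tested genes were called. S100a4, a calcium-binding protein that disassembles Myh9 filaments, fell with differentiation in control cells by 1.21 on the log2 scale (adjusted p = 1.43e-05) and was higher in MUNC genomic than control DM3 by 0.85 (adjusted p = 0.000611). Rock2, a kinase that activates nonmuscle myosin, was lower than control in DM3 in MUNC spliced (-0.42, adjusted p = 0.0295) and MUNC genomic cells (-0.73, adjusted p = 0.000893). Rhoa, which switches Rock2 on, differed by 0.24 and 0.15 there (adjusted p = 0.113 and 0.322).

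The smooth muscle list, beside which Myh11 belongs, was far more abundant than Myh11 itself and had 7 of 8 genes tested. In MUNC genomic against control DM3, 5 were higher and 1 lower (median 1.46), and in MUNC spliced against control DM3, 2 were higher and 2 lower (median 0.05), beside 40.3% and 43.3% of all tested genes. Acta2, smooth muscle actin, averaged 1234 ± 72.4, 2247 ± 683 and 2608 ± 724 FPM in DM3 of control, MUNC spliced and MUNC genomic cells. Myocd, the cofactor that drives the smooth muscle programme, averaged at most 0.0295 FPM in any group.

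Myotube genes and markers of other cell types moved with some of these results. Of 7 myotube genes, 5 were tested, and 5 were higher than control in DM3 in each MUNC line (median 2.75 in MUNC spliced and 1.74 in MUNC genomic), against 22.3% and 19.3% of all tested genes. Their summed level was 2.19 to 9.02, 46.1 to 202 and 25.6 to 44.8 FPM in DM3 of control, MUNC spliced and MUNC genomic cells. In control GM it was 0.446 to 0.768 FPM, so some of the tested myotube genes passed the filter through the MUNC lines. The counts called are therefore a description. In bulk RNA, fewer myotubes and less RNA per myotube cannot be told apart. Summed endothelial markers, 4 genes, were 0.256 to 0.743 FPM in control GM and 7.14 to 7.62 FPM in MUNC genomic GM. In MUNC spliced GM they were 0.880 to 1.72 FPM. In DM3 they were 0.250 to 0.612 FPM in control, at most 1.59 FPM in MUNC spliced and 4.01 to 5.28 FPM in MUNC genomic cells. Of the 2 tested genes, Cdh5 alone was higher than control in MUNC genomic GM and DM3 (12.2% and 19.3% of all tested genes). In MUNC spliced cells Tek alone was higher than control, by 0.83 in GM (adjusted p = 0.000168) and 0.99 in DM3 (adjusted p = 1.9e-05). Of all tested genes 18.2% and 22.3% were higher there. Kdr, a defining endothelial receptor, averaged at most 0.00841 FPM in any group. Summed fibroblast and tendon markers, 5 genes, were 190 to 293, 274 to 621 and 235 to 375 FPM in DM3 of control, MUNC spliced and MUNC genomic cells, with 1 of 5 higher in MUNC spliced and 3 of 5 higher in MUNC genomic cells, against 22.3% and 19.3% of all tested genes. Summed adipocyte markers, 5 genes, were 6.27 to 7.35, 8.61 to 8.92 and 2.83 to 3.15 FPM in DM3 of control, MUNC spliced and MUNC genomic cells, with Adipoq and Cidec at 0 in these 3 groups. The 2 tested genes split in MUNC spliced against control DM3, Pparg being higher (0.80, adjusted p = 0.00556) and Fabp4 lower (-1.09, adjusted p = 0.00391). In MUNC genomic against control DM3 Pparg was lower (-1.04, adjusted p = 0.000814) and Fabp4 was not called (-0.59, adjusted p = 0.0944). Of all tested genes 43.3% and 40.3% were called in these comparisons. The part of all these markers in the Myh10 and Myh14 differences was not tested.

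Of the heavy chain genes outside the 10 members, Myh6, Myh7b, Myh13 and Myh15, none reached the filter. Myh7b, an ancient striated muscle form, had the highest mean of these, 0.657 ± 0.250, 0.265 ± 0.0769 and 0.380 ± 0.108 FPM in DM3 of control, MUNC spliced and MUNC genomic cells. In control DM3 the Myh7b mean was above that of Myh3 (0.444 ± 0.0629 FPM), and the sarcomeric shares leave Myh7b out. Myh6, the atrial form, averaged 0.165 ± 0.0988 FPM in MUNC spliced DM3, and is among the genes that share 50-base windows with Myh7, so reads may be split between the pair.

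Genes with the most similar profile were found for each tested member as the smallest root mean square difference of log2(FPM + 1) values centred over the 18 libraries. For Myh3, whose own profile had an SD of 2.15, these were Mybph (0.53), Mylpf (0.55) and Myl1 (0.64). For Myh1 (SD 0.99) they were Xirp1 (0.31), an actin-binding protein of muscle, Trim72 (0.31), which takes part in membrane repair, and Casq2 (0.36), a calcium store protein. The profile of Myh10 (SD 0.58) came closest to those of the transcription factor Ebf1 (0.18), Cachd1 (0.20) and the zinc finger gene Zfp382 (0.26). Myh14 (SD 1.66) had Acox2 (0.62), Gdpd5 (0.64) and Pi16 (0.69) nearest. Myh9 (SD 0.36) had Prr12 (0.14), the growth kinase gene Mtor (0.15) and Med12 (0.16), a subunit of the Mediator complex. These distances are descriptions over libraries that share their groups.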

How the data were processed

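The authors deposited 1 table of FPM values, a signal per gene made by dividing gene counts by size factors, and tables of their own comparisons with log2 fold changes, p-values and, as scores, mean normalized counts and test statistics. Per the submitters' processing notes, STAR, HTSeq, DESeq2 and mm10 were used; versions, annotation and counting strand are not given in the sources used here. Groups were taken from sample titles, since the source field disagrees with some of them. The deposited FPM signal gave whole reads for 100% of values within 0.05 of a read.

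The members and lists were chosen with earlier results of these data known. limma 3.58.1 (R 4.3.3) was fitted with a trend to log2(FPM + 1) of all 18 libraries, for genes that reached 0.5 FPM in 3 or more libraries, with Benjamini-Hochberg adjustment over 13869 genes, and calls were made at an adjusted p under 0.05. Alternatives were a pseudocount of 0.1, no filter, equal sums, only the compared groups, a replicate block, edgeR 4.0.16 and DESeq2 1.42.0 on recovered reads, and leaving out each library. The tests were tried on simulated data first. Whether replicates came from separate cultures is stated only as biological replicates, and p-values measure the spread between these samples.

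Named genes were the 10 members, for each list at most 3 genes with the highest mean FPM, and the 3 genes nearest in profile to each tested member. Other genes are named where a defining marker is low, or were chosen after their values were seen. Same-numbered libraries deviated together, every correlation being over 0.1, in 6 of 9 comparisons of 2 groups, for example 0.203 to 0.411 for control DM3 against GM. GENCODE M21 (GRCm38) had a model for 97.8% of the genes. Antisense genes overlap Myh1, Myh2, Myh7 and Myh14 and held at most 8 reads in any library. Promoters are RefSeq's.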

Additional observations from a re-analysis of the deposited data

Results flagged for a closer look

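The differentiation response, DM3 against GM, was compared between kinds of cells with limma, and 4 differences passed. For Myh3 the response exceeded that of control cells by 3.8 on the log2 scale in MUNC spliced cells (adjusted p = 0.00284) and by 3.01 in MUNC genomic cells (adjusted p = 0.0105). Myh3 passed the filter on low values only through MUNC spliced and MUNC genomic DM3 libraries, where it is high. For Myh10 the response in MUNC spliced cells exceeded that of control cells by 0.76 (adjusted p = 0.0143). For Myh14 the response of MUNC spliced cells differed from that of MUNC genomic cells by -3.91 (adjusted p = 0.00137).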

How the results depend on the processing

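Of the members' log2 changes, 437 kept direction and side of the threshold under alternatives other than leaving out a library, 16 passed newly, 12 no longer passed and 15 changed sign, while with 1 library left out these numbers were 404, 11, 14 and 21. The sign changes concerned values that were not called, and the cause was not tested. At a pseudocount of 0.1 they were Myh14 in MUNC spliced DM3 against GM (0.26) and Myh3 in differentiation of MUNC spliced against MUNC genomic (-0.86), and with equal sums Myh1 in MUNC genomic against control GM (3.8e-05). For Myh10 in MUNC spliced DM3 against GM, edgeR, DESeq2 and edgeR without a filter gave 0.0102, 0.0267 and 0.0199, for Myh9 in MUNC spliced against control GM -0.0543, -0.0161 and -0.0318, for Myh1 in MUNC genomic against control GM 0.0155, 0.0754 and 0.0222, and for Myh3 in differentiation of MUNC spliced against MUNC genomic -0.88, -0.96 and -0.92. edgeR without a filter, exon-merged lengths and means without 1 library were added after seeing the data.

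With 1 library left out, values ran from -0.0084 to 0.0081 for Myh1 in MUNC genomic against control GM, -0.10 to 0.0928 for Myh10 in MUNC spliced DM3 against GM, -0.18 to 0.28 for Myh14 in MUNC spliced DM3 against GM, -0.56 to 0.18 and -0.52 to 0.33 for Myh14 in MUNC spliced and MUNC genomic against control GM, -0.45 to 0.26 for Myh14 between the MUNC lines in GM, -0.0447 to 1.37 for Myh3 in differentiation of MUNC spliced against MUNC genomic, and for Myh9 from -0.0709 to 0.19 in MUNC genomic DM3 against GM, -0.10 to 0.21 in MUNC genomic against control DM3 and -0.24 to 0.16 in MUNC spliced against control GM.

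The number of genes called for the MUNC spliced interaction was 1993, and 1214 with only the compared groups, 1304 with edgeR without a filter and 1063 to 2434 with 1 library left out. For the MUNC genomic interaction it was 1222, and 777 with edgeR, 585 with edgeR without a filter and 784 to 1345 with 1 library left out. For differentiation of MUNC spliced against MUNC genomic it was 1460, and 867 with edgeR without a filter and 930 to 1597 with 1 library left out. For MUNC spliced DM3 against GM it was 4933, and 3046 with only the compared groups.

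With the replicate number as a block, the 3 interaction counts were 3868, 2265 and 2716. This block is in doubt for all 3 interactions. Same-numbered GM and DM3 libraries correlated by as little as 0.0163 in MUNC spliced and 0.0531 in MUNC genomic cells. Among members the block added calls for Myh14 in the MUNC spliced and MUNC genomic interactions (adjusted p = 0.0179 and 0.0188) and for Myh10 in differentiation of MUNC spliced against MUNC genomic (adjusted p = 0.0226), beside the 4 for Myh9 in the report, and changed no other member's call. Depth limits Myh2, Myh4, Myh7, Myh8 and Myh11, which rest on few reads.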
